A study of Mus musculus with 24 samples.

Results

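The genes described here are 34 genes of glycolysis and of the transcriptional response to low oxygen. They were chosen by symbol from a list, with earlier results of these data known. All 34 of the 55291 gene symbols in the tables were found. They cover glucose and lactate transport (3 genes), glycolytic enzymes (15), pyruvate use and mitochondria (4), oxygen sensing (3), collagen and chromatin hydroxylases (3), and secreted or growth-related targets (6).

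The libraries are of total RNA from E14Tg2a, a mouse embryonic stem cell line of the 129/Ola strain, engineered so that auxin degrades the endogenous CTCF protein, the zinc finger factor of insulator sites. All libraries carry this degron, and each line also carries a doxycycline-inducible Ctcf transgene. Each of the 9 mutant groups (R339Q, R342C, S354F, K365T, R377C, R377H, Q418R, R448Q and H455R) is a separate line whose transgene has that amino acid substitution, treated with the auxin indole-3-acetic acid and doxycycline (ID). The line with a wild-type transgene was treated with auxin alone (WT IAA), with auxin and doxycycline (WT ID), or left untreated (WT UN). Treatment lasted 2 days, with 500 µM of the auxin and, where added, 1 µg/ml of doxycycline. Each of the 12 groups has 2 libraries, and no group had doxycycline without auxin. A substitution and its line cannot be told apart, and the 22 treated libraries all had auxin.

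Glycolysis turns glucose into pyruvate. Lactate dehydrogenase and the lactate exporter let it run without respiration, and pyruvate dehydrogenase kinase keeps pyruvate out of the mitochondria. In oxygen, prolyl hydroxylases of the Egln family mark the alpha subunit of hypoxia-inducible factor for destruction. In low oxygen the factor accumulates and binds a short DNA core next to many glycolytic genes and to genes such as Bnip3 and Vegfa. Naive embryonic stem cells in culture use glycolysis and respiration together.

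Promoters were looked at first, because the core of the hypoxia response element is part of what links these genes. RefSeq windows of 300 bases (GRCm38.p6, to 250 bases before the start site) were matched for 31 of the 34 members, all but Slc2a3, Bnip3l and Ndrg1. The letters ACGTG or GCGTG, on either strand and allowed to overlap, so that the E-box CACGTG counts on both strands, were in at least 1 window of 29 of these 31 genes. Over all genes with a window, 46.7% had such a match. Counted by window, 36 of 46 member windows (78.3%) and 43.8% of all 32851 windows held a match. Member windows were richer in G and C, with a median of 64.8% against 52.7% over all windows, and both cores hold C and G. The core letters AGGGGGC of the CTCF motif were in 12 of the 46 member windows (26.1%) and in 10.6% of all windows. These are matches of letters, not binding sites. The stretches below are 60 bases each, written 5′ to 3′ on the strand of the gene, with the core matches in capitals. The first 6 belong to members with a wide gap between untreated and treated cells, and Hif1a is shown as a member without that gap.
Bnip3, chr7:138909583-138909642, minus strand: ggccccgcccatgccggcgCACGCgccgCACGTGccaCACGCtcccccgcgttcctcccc
Slc16a3, chr11:120949007-120949066, plus strand: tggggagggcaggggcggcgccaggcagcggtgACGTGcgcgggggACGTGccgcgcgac
Slc2a1, chr4:119108668-119108727, plus strand: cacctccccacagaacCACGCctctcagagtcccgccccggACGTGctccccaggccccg
Pgk1, chrX:106186931-106186990, plus strand: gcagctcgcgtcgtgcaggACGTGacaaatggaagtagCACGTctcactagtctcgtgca
Ldha, chr7:46845735-46845794, plus strand: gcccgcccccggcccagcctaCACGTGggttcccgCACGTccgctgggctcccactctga
Ankrd37, chr8:45999973-46000032, minus strand: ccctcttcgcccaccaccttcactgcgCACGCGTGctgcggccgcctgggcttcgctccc
Hif1a, chr12:73907704-73907763, plus strand: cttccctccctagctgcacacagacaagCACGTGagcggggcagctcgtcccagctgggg

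Bnip3 had 5 matches before its start site, and Ldha had 5 before the start site of the window that the stretch comes from. The 2 members with no match, Gpi1 and Tpi1, both code for enzymes. Of the 23 members with a window whose untreated levels lay above all treated libraries 21 had a match, as did 8 of the 8 whose untreated levels overlapped the treated range.

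The libraries held 27761749 to 77141117 recovered reads, and mitochondrial genes took 1.22% to 3.38% of them. Replicates of a group differed by more than counting noise (chi-square per gene of 6.40 to 38.9), and no library was left out. Markers of naive pluripotency summed to 6553 to 8177 TPM in treated libraries and to 7054 and 7380 TPM in untreated ones. Ctcf itself was at 141 to 284 TPM in treated and 125 to 126 TPM in untreated libraries, which does not check the depletion, since auxin acts on the protein. The labels do not say whether replicates were separate cultures, so the p-values below rest on differences between libraries that could be technical repeats. In bulk RNA, fewer cells of a type and less RNA per cell cannot be told apart.

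The widest difference in these genes lay between treated and untreated cells. In both wild-type treated groups, enzymes at most steps of glycolysis, the glucose transporter Slc2a1, the lactate exporter Slc16a3 and the mitochondrial gene Bnip3 were lower than in WT UN. In 25 of the 34 members both untreated libraries lay above all 22 treated libraries, whereas 5.55% of the 19289 genes passing a mean of 0.5 TPM did so. No member lay below all 22, against 12.3% of genes. At least 2-fold lower without overlap in WT ID than in WT UN were 19 members, against 2.69% of genes, and 0 were higher by that rule, against 10.5% of genes. In WT IAA 18 members were lower than in WT UN by the same rule, against 3.9% of genes, and 0 were higher, against 13.1%. The members' median log2 ratio, with 0.1 TPM added to each mean, was −1.13 for WT ID over WT UN and −1.04 for WT IAA over WT UN, where the median over all genes was 0.18 in both. No test was made across the tables. The untreated libraries are held in a separate table, so that treatment and any difference in library preparation or scaling cannot be told apart.

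**Figure D1:**
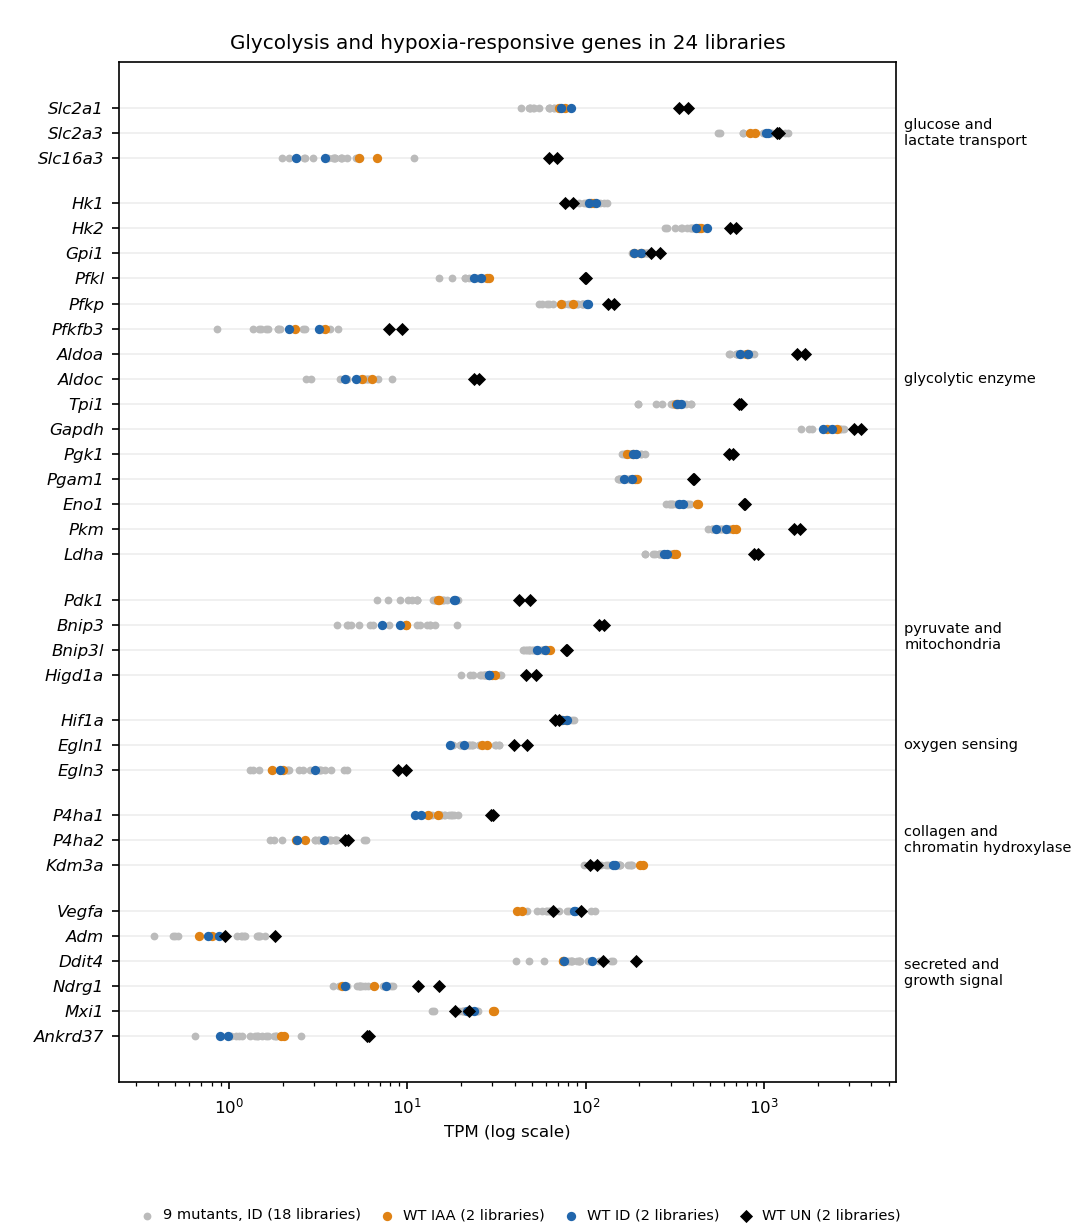
TPM (log axis) of the 34 genes, grouped by role, in every library: grey, 18 mutant libraries; orange, WT IAA; blue, WT ID; black diamonds, WT UN. In 25 genes both black diamonds lie right of all other points, and in Slc2a3, Hk1, Hif1a, P4ha2, Kdm3a, Vegfa, Adm, Ddit4 and Mxi1 at least 1 lies among them.

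Of the 3 transport genes 2 were lower in WT ID by the 2-fold rule. Slc16a3, the lactate exporter, had 3.44 and 2.38 TPM in WT ID, 6.74 and 5.34 TPM in WT IAA, and 68.8 and 62.4 TPM in WT UN. Its mean was 22.6-fold lower in WT ID and 10.9-fold lower in WT IAA than in WT UN, and no treated library passed 10.9 TPM. Slc2a1, the basal glucose transporter, had 82.8 and 72.4 TPM in WT ID, 76.7 and 71.0 TPM in WT IAA, and 376 and 335 TPM in WT UN. That was 4.58-fold lower in WT ID than in WT UN, with the highest treated library at 83.2 TPM. Slc2a3, the high-affinity glucose transporter, had 1054 and 1030 TPM in WT ID and 1178 and 1218 TPM in WT UN, and both untreated libraries lay inside the treated range of 554 to 1368 TPM.

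Among the 15 glycolytic enzymes, 14 had both untreated libraries above every treated one, and 10 were at least 2-fold lower in WT ID than in WT UN without overlap. Their summed level was 4839 to 6608 TPM in the treated libraries and 10935 and 11552 TPM in the untreated ones. Pgk1, which makes the first ATP of the pathway, had 193 and 184 TPM in WT ID, 185 and 171 TPM in WT IAA, and 635 and 673 TPM in WT UN, a 3.48-fold difference for WT ID. Ldha, which turns pyruvate into lactate, had 286 and 275 TPM in WT ID, 312 and 323 TPM in WT IAA, and 882 and 929 TPM in WT UN. For Pkm, the last enzyme before pyruvate, these were 614 and 537 TPM in WT ID, 700 and 669 TPM in WT IAA, and 1588 and 1472 TPM in WT UN.

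The enzyme genes did not share 1 size of difference. The liver-type phosphofructokinase Pfkl averaged 24.8 TPM in WT ID and 100 TPM in WT UN, a 4.04-fold difference, and the brain-type aldolase Aldoc 4.83 and 24.4 TPM, a 5.05-fold difference. Pfkfb3, which makes the activator of phosphofructokinase, averaged 2.69 TPM in WT ID and 8.61 TPM in WT UN. Aldoa, Tpi1, Pgam1 and Eno1 were 2.09-fold to 2.33-fold lower in WT ID than in WT UN. Hk2, Gpi1, Pfkp and Gapdh were 1.26-fold to 1.49-fold lower in WT ID, and under the 2-fold rule. Hk1, the hexokinase of most tissues, was the exception, at 114 and 104 TPM in WT ID and 84.6 and 77.0 TPM in WT UN.

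Of 7 ratios computed between related genes, 6 did not overlap between treated and untreated libraries. The ratios are made from the same TPM values, so 1 gene that differed can set a ratio apart. They are therefore not separate evidence, and no share over other pairs of genes is given. Slc2a3 was 10.1 to 21.6 times Slc2a1 in the treated libraries, against 3.14 and 3.63 times in WT UN. The ratio of Hk2 to Hk1 was 2.85 to 4.24 in treated libraries and 8.19 and 8.35 in WT UN, and that of Pfkp to Pfkl was 2.11 to 4.51 in treated libraries and 1.32 and 1.46 in WT UN. Ldha was 0.256 to 0.634 times Ldhb, the other lactate dehydrogenase gene, in treated libraries and 0.870 and 0.879 times in WT UN. The ratios of Aldoa to Aldoc and of Bnip3l to Bnip3 did not overlap either. That of Egln1 to Egln3 did, at 4.48 to 24.2 in treated libraries and 4.01 and 5.28 in WT UN.

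**Figure D2:**
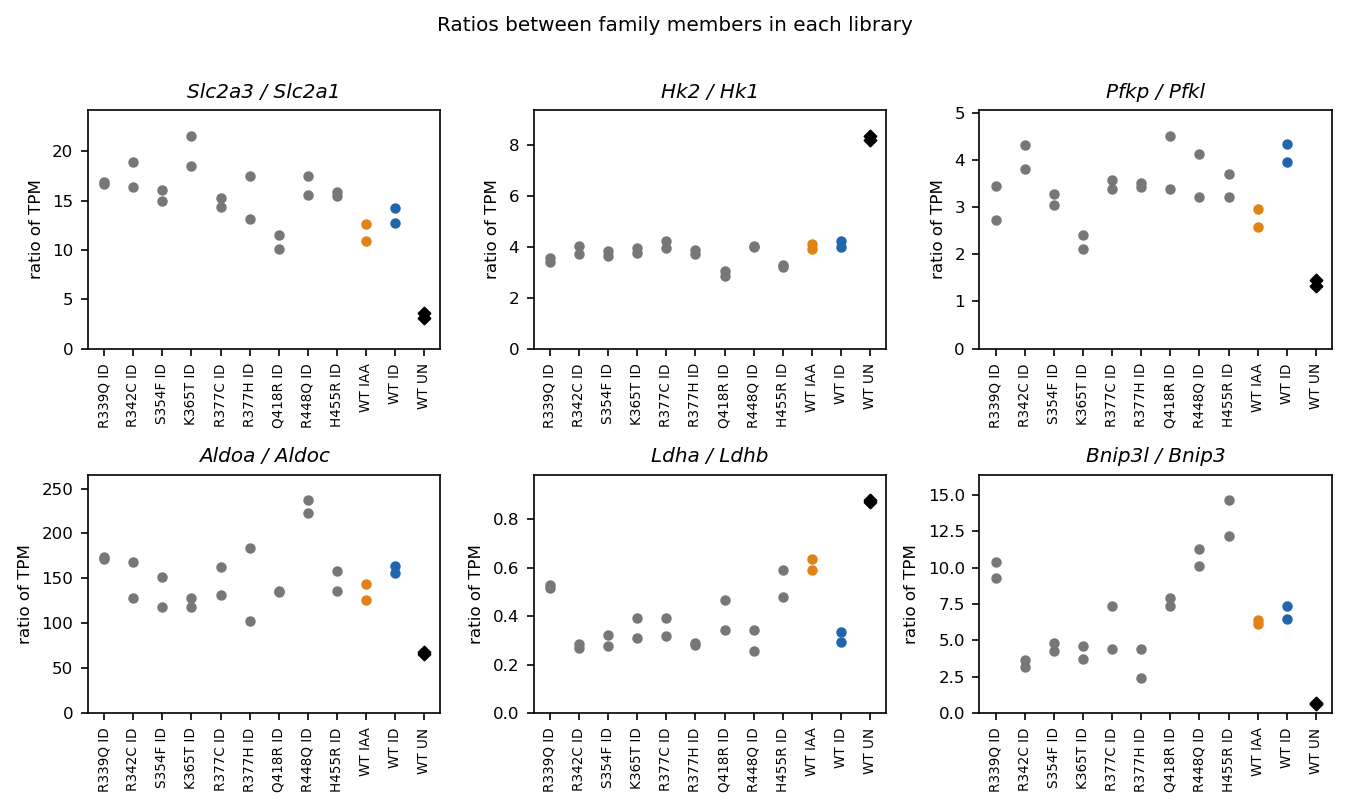
Ratio of TPM (linear axis from 0) between related genes in each library, by group, with WT UN at the right. Untreated libraries lie apart from the treated ones in all 6 panels, with Hk2 over Hk1 at 8.19 and 8.35 against at most 4.24, and Bnip3l over Bnip3 at 0.62 to 0.66 against at least 2.42.

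Of the 4 genes of pyruvate use and mitochondria, all had both untreated libraries above every treated one. Bnip3, a receptor that marks mitochondria for autophagy, had 9.13 and 7.215 TPM in WT ID, 9.82 and 9.83 TPM in WT IAA, and 119 and 127 TPM in WT UN. It was 15.1-fold lower in WT ID, with a highest treated library of 19.1 TPM. Its relative Bnip3l, with 59.2 and 53.1 TPM in WT ID and 78.1 and 79.1 TPM in WT UN, differed 1.399-fold, so that Bnip3l was 2.42 to 14.6 times Bnip3 in treated libraries and 0.62 to 0.66 times in WT UN. Pdk1, the kinase that turns off pyruvate dehydrogenase, had 18.3 and 18.6 TPM in WT ID, 15.1 and 14.9 TPM in WT IAA, and 42.2 and 48.8 TPM in WT UN. Higd1a, a small mitochondrial protein, was 1.73-fold lower in WT ID than in WT UN.

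In the oxygen-sensing group the factor and its hydroxylases differed. Hif1a, the regulated alpha subunit, had 78.5 and 74.1 TPM in WT ID, 77.2 and 72.7 TPM in WT IAA, and 70.8 and 67.1 TPM in WT UN, within the treated range of 67.0 to 86.3 TPM. The subunit is controlled mainly as protein, which was not measured. Egln3 had 3.04 and 1.94 TPM in WT ID, 1.74 and 2.00 TPM in WT IAA, and 8.89 and 9.90 TPM in WT UN. Egln1, the main hydroxylase of the factor, had 20.95 and 17.3 TPM in WT ID, 26.3 and 27.9 TPM in WT IAA, and 47.0 and 39.7 TPM in WT UN.

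The hydroxylases and the secreted or growth-related genes were mixed. P4ha1, a collagen prolyl hydroxylase subunit, was 2.59-fold lower in WT ID than in WT UN, whereas untreated levels of P4ha2 and the histone demethylase Kdm3a lay within the treated range. Kdm3a had 146 and 142 TPM in WT ID, 202 and 210 TPM in WT IAA, and 117 and 107 TPM in WT UN. Ankrd37 had 0.89 and 0.99 TPM in WT ID, 2.04 and 1.97 TPM in WT IAA, and 6.11 and 5.92 TPM in WT UN. Ndrg1 was 2.20-fold lower in WT ID than in WT UN. Vegfa, the vascular growth factor, had 85.7 and 86.7 TPM in WT ID and 94.2 and 65.9 TPM in WT UN, and these overlapped. In WT IAA Vegfa had 44.0 and 41.5 TPM, 1.87-fold lower than in WT UN without overlap. Untreated levels of Mxi1 lay within the treated range. Adm, with 1.81 and 0.955 TPM in WT UN, and Ddit4, with 191.7 and 125.4 TPM, each had 1 untreated library above all treated ones and 1 among them. Ddit4 was 2.12-fold lower in WT IAA than in WT UN without overlap, and 1.72-fold lower in WT ID.

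Genes around the members were read from further lists. Of 30 other hypoxia-responsive genes that passed the filter, 4 were at least 2-fold lower in WT ID than in WT UN without overlap (Loxl2, Bhlhe40, Plod2 and Narf) and 1 was higher (Rragd), with a median log2 ratio of −0.33. Of 26 other glycolysis and pyruvate genes, 1 was lower and 2, Fbp2 and Pck2, were higher in WT ID by this rule, with a median of 0.34 over the list. None of 9 other subunits and regulators of the factor, among them Epas1, Arnt and Vhl, differed by this rule. The nuclear respiratory genes had a median of −0.10, and 0 of 24 differed. Processed copies share sequence with some enzymes. The Eno1 copy Eno1b averaged 169 TPM in WT ID and 368 TPM in WT UN.

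Sums of markers of other cell states were set beside these values. The summed level of 9 formative and primed markers was 59.9 to 106 TPM in treated libraries and 136 and 147 TPM in WT UN. The 9 primitive endoderm markers summed to 18.003 to 45.7 TPM in treated libraries and 13.3 and 15.6 TPM in WT UN, and the 6 trophectoderm markers to 90.2 to 232 TPM and 76.0 and 83.2 TPM. Neural ectoderm, mesendoderm and fibroblast sums overlapped, at 62.0 to 227, 17.2 to 36.7 and 13.9 to 42.8 TPM in treated libraries and 109.7 to 119, 16.007 to 20.7 and 17.6 to 22.4 TPM in WT UN. No marker of these lists was at 0 in every library, but some were under 1 TPM in all of them. These were 4 of 7 neural ectoderm, 3 of 9 primitive endoderm, 2 of 7 mesendoderm and 2 of 6 fibroblast markers. So were 1 of 6 trophectoderm and 1 of 9 formative and primed markers, so the sums rest on the remaining genes. Their part in the difference was not tested.

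Among the treated groups the members' changes were smaller. Each comparison below used limma on log2(normalized count + 1) over 18713 genes, with p-values adjusted by Benjamini-Hochberg over all of them, and a gene is called where the adjusted p is under 0.05. All comparisons except R377C with R377H share the same WT ID libraries, so a level in WT ID that is high or low enters each of them. Of 374 pairs of a member and a comparison 86 were called, in 30 members. Pooled over the comparisons, members were called about as often as all genes. Over all genes, the called shares ran from 4.67% higher and 3.43% lower in R377C to 22.8% higher and 23.1% lower in R448Q. Pgk1, Pgam1, Egln3 and Adm were not called in any comparison. The groups compared did not overlap in any of the 86, and 35 kept the call when each of the 4 libraries compared was left out in turn. Among all called genes, the shares without overlap and keeping the call are not given, so neither count sets the members apart. Standard errors follow the log2 fold changes.

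**Figure D3:**
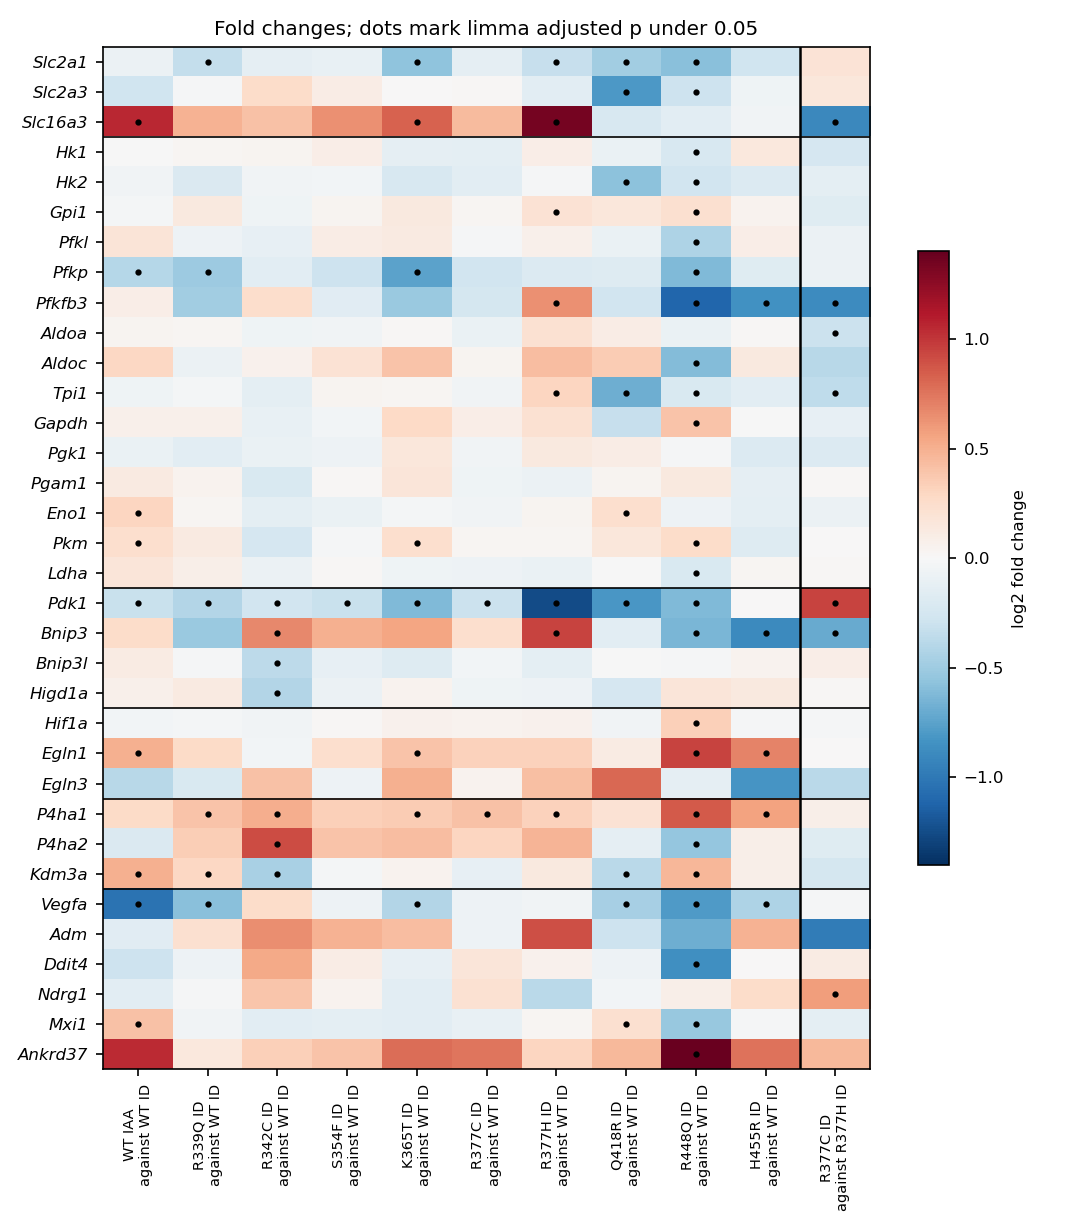
Log2 fold change (colour) of each gene in the 11 comparisons, with the group named first over the group named after it; dots mark limma adjusted p under 0.05 and lines separate the roles. R448Q has 24 dots, and the R377H column holds the lowest value, Pdk1 at −1.25.

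The comparison of WT IAA with WT ID sets depletion without the induced transgene against depletion with it. Doxycycline itself also differs between these groups, and the drug and the transgene cannot be told apart here. Slc16a3 rose and Vegfa fell, and of the 15 glycolytic enzymes 2 rose and 1 fell. Of the 34 members 6 rose (17.6%), where 9.96% of all genes did, and 3 fell (8.82%), where 10.7% of all genes did. The members' median was 0.05, against 0.00 over all genes. Vegfa had 2466 and 2359 normalized counts in WT IAA, against 4719 and 5132 in WT ID. Both WT IAA libraries were the lowest of the 22, and the change was −1.03 ± 0.09 (limma adjusted p = 5.51e-07). Slc16a3 had 469.1 and 376.9 normalized counts in WT IAA, against 235 and 174 in WT ID, a change of 1.05 ± 0.28 (limma adjusted p = 0.0123).

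The other increases were Kdm3a (0.50 ± 0.09), Egln1 (0.49 ± 0.12), Mxi1, a Myc antagonist (0.41 ± 0.07), Eno1 (0.30 ± 0.08) and Pkm (0.24 ± 0.08). The other decreases were the platelet-type phosphofructokinase Pfkp (−0.40 ± 0.11) and Pdk1 (−0.31 ± 0.09). Ankrd37 had a change of 1.04 that did not pass (limma adjusted p = 0.054). The calls of Slc16a3, Egln1, Eno1, Pkm, Pdk1 and Pfkp were lost without WT ID replicate 2, where Slc16a3 stood at 0.84 (limma adjusted p = 0.13). Without WT IAA replicate 1 Slc16a3 stood at 0.89 (limma adjusted p = 0.101). Eno1 and Pkm lost their calls without any 1 of the 4 libraries, Pdk1 also without either WT IAA library (−0.32 and −0.31), and Egln1 (0.44) and Pfkp (−0.30) also without WT IAA replicate 2.

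**Figure D4:**
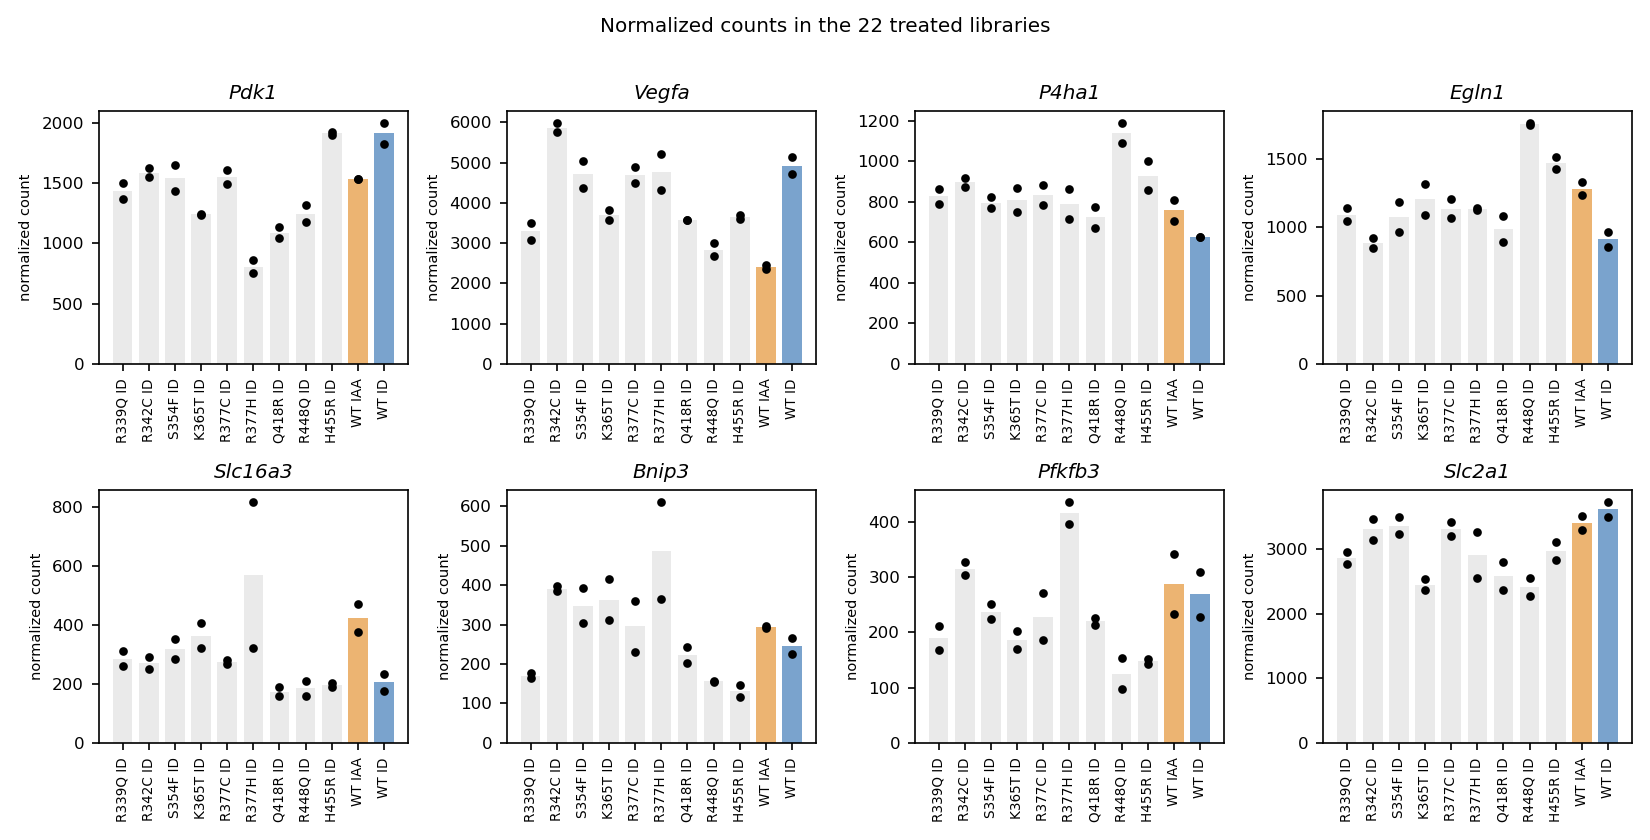
Normalized counts (linear axis from 0) of 8 members in the 22 treated libraries; bars are means of 2 libraries, points are libraries, grey bars mutants, orange WT IAA and blue WT ID. Vegfa is lowest in WT IAA, Pdk1 is lowest in R377H, and Slc16a3 in R377H rests on libraries of 815 and 323 counts.

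In the R339Q line 2 members rose, where 11.8% of genes did, and 4 fell, where 9.7% of genes did. Vegfa had 3080 and 3505 normalized counts in R339Q, against 4719 and 5132 in WT ID (−0.58 ± 0.09, limma adjusted p = 0.000154). P4ha1 had 863 and 791 in R339Q, against 628 and 628 in WT ID (0.39 ± 0.12, limma adjusted p = 0.0198). Pfkp (−0.51 ± 0.11), Pdk1 (−0.41 ± 0.09) and Slc2a1 (−0.34 ± 0.10) fell and Kdm3a rose (0.29 ± 0.09). Without R339Q replicate 1 the calls of Pfkp, Slc2a1, Kdm3a and P4ha1 were lost, with P4ha1 at 0.33 (limma adjusted p = 0.17). P4ha1 also lost its call without WT ID replicate 1 (0.40) or 2 (0.39), and Kdm3a (0.25 to 0.33) and Slc2a1 (−0.38 to −0.29) lost theirs without any 1 of the 4 libraries.

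In R342C rises were called in 3 members (8.82%), where 10% of genes rose, and decreases in 4 (11.8%), where 13.3% of genes fell. Members were thus not called more often than all genes. The calls lay in the 3 hydroxylases, with 2 higher and 1 lower, and in the 4 genes of pyruvate use and mitochondria, with 1 higher and 3 lower. P4ha2 had 424 and 478 normalized counts in R342C, against 273 and 208 in WT ID (0.92 ± 0.19, limma adjusted p = 0.00188). Kdm3a had 10749 and 12389 in R342C, against 15422 and 16167 in WT ID (−0.45 ± 0.09, limma adjusted p = 0.00148). Bnip3 (0.67 ± 0.23) and P4ha1 (0.51 ± 0.12) also rose. Higd1a (−0.41 ± 0.12), Bnip3l (−0.36 ± 0.09) and Pdk1 (−0.27 ± 0.09) fell. Without R342C replicate 1 the calls of Bnip3, Bnip3l, Higd1a and Pdk1 were lost, with Higd1a at −0.14 (limma adjusted p = 0.446). Bnip3 (0.55 to 0.79) and Pdk1 (−0.33 to −0.21) lost theirs without any 1 library, Higd1a also without either WT ID library (−0.46 and −0.35), and Bnip3l also without WT ID replicate 1 (−0.34). On TPM the split of calls was 5 higher and 1 lower, beside 2264 higher and 963 lower of all 18713 genes.

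The S354F and R377C lines had the fewest calls. In S354F 0 members rose, where 5.49% of genes did, and 1 fell, where 4.31% did. At an unadjusted p under 0.05 in limma, 4 members were higher and 2 lower in S354F. Of all 18713 genes, 4249 passed that level in either direction, a larger share than among the members. After adjustment, edgeR and DESeq2 each called 1 member, as limma did. That 1 was Pdk1, with 1654 and 1435 normalized counts in S354F, against 1828 and 1996 in WT ID (−0.31 ± 0.09, limma adjusted p = 0.0356). The call was lost without S354F replicate 2 (−0.21) and without either WT ID library (−0.37 and −0.25).

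In R377C 1 member rose, where 4.67% of genes did, and 1 fell, where 3.43% did. P4ha1 had 784 and 883 normalized counts in R377C, against 628 and 628 in WT ID (0.41 ± 0.12, limma adjusted p = 0.0359). Pdk1 had 1609 and 1490 in R377C, against 1828 and 1996 in WT ID (−0.30 ± 0.09, limma adjusted p = 0.0456). Each call was lost without any 1 of the 4 libraries, with P4ha1 at 0.32 to 0.49 and Pdk1 at −0.37 to −0.24.

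In K365T 4 members rose, where 17.7% of genes did, and 4 fell, where 14.2% did. Slc16a3 had 404 and 320 normalized counts in K365T, against 235 and 174 in WT ID (0.83 ± 0.28, limma adjusted p = 0.0307). Pfkp had 11380 and 10409 in K365T, against 17626 and 19003 in WT ID (−0.75 ± 0.11, limma adjusted p = 5.07e-05). Egln1 (0.40 ± 0.12), P4ha1 (0.36 ± 0.12) and Pkm (0.23 ± 0.08) also rose. Pdk1 (−0.62 ± 0.09), Slc2a1 (−0.56 ± 0.10) and Vegfa (−0.41 ± 0.09) also fell, and the 4 decreases kept their calls without any 1 library. Without WT ID replicate 2 all 4 increases lost theirs, with Slc16a3 at 0.61 (limma adjusted p = 0.224), as it did without K365T replicate 1 (0.66). Egln1 also lost its call without K365T replicate 1 (0.26), P4ha1 without K365T replicate 2 (0.25) or WT ID replicate 1 (0.36), and Pkm without any 1 library (0.19 to 0.28).

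The K365T values were also set against those of their chromosomes. The median of chromosome 11, which holds Slc16a3, lay 0.38 above that of all genes in K365T, and that of chromosome 8, which holds Egln1, 0.20 above. With each library centred by chromosome, Slc16a3 stood at 0.46 (limma adjusted p = 0.241) and Egln1 at 0.21 (limma adjusted p = 0.178). These 2 calls were lost, but centring gave 7 members higher and 4 lower in K365T, beside 4 and 4 without it. Of 18278 genes so centred, 2666 were higher and 2271 lower. On TPM the split of K365T calls was 0 higher and 6 lower, beside 2466 higher and 3310 lower of all 18713 genes.

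The R377H line had the largest single decrease among these genes, in Pdk1. It had 861 and 751 normalized counts in R377H, against 1828 and 1996 in WT ID (−1.25 ± 0.09, limma adjusted p = 1.13e-08), and both R377H libraries were the lowest of the 22. Of the members 6 rose, where 14.4% of genes did, and 2 fell, where 10.7% did. Slc16a3 had 815 and 323 normalized counts in R377H, against 235 and 174 in WT ID (1.34 ± 0.28, limma adjusted p = 0.00142). The R377H libraries of Slc16a3 lay far apart, and without R377H replicate 1 it stood at 0.67 (limma adjusted p = 0.0505), which ended the call.

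Bnip3 (0.94 ± 0.23), Pfkfb3 (0.64 ± 0.23), P4ha1 (0.32 ± 0.12) and Tpi1 (0.30 ± 0.08) were the next largest R377H increases, Gpi1 rose by 0.20 ± 0.07, and Slc2a1 fell (−0.32 ± 0.10). Without R377H replicate 1 Bnip3 stood at 0.57 (limma adjusted p = 0.114), and without WT ID replicate 2 at 0.83 (limma adjusted p = 0.0505). Gpi1 (0.18 to 0.22) lost its call without any 1 library, and Pfkfb3 without either R377H library (0.57 and 0.71) or WT ID replicate 2 (0.42). P4ha1 lost its call without R377H replicate 1 (0.18) or either WT ID library (0.32), Slc2a1 without R377H replicate 2 (−0.14) or either WT ID library (−0.28 and −0.37), and Tpi1 without WT ID replicate 1 (0.29). Pdk1 kept its call each time. Chromosome 11 stood 0.54 above all genes in R377H, and centred on it Slc16a3 was at 0.80 (limma adjusted p = 0.0472). On TPM 2 members were higher and 2 lower, where 1887 and 2788 of all 18713 genes were.

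The R377C and R377H lines change the same arginine to different residues, and their direct comparison shared no library with WT ID. In R377C against R377H 2 members were higher, where 7.88% of genes were, and 5 lower, where 11.1% of genes were. Pdk1 had 1609 and 1490 normalized counts in R377C, against 861 and 751 in R377H (0.94 ± 0.09, limma adjusted p = 6.99e-07), and kept its call without any 1 of these libraries. Slc16a3 had 269 and 281 in R377C, against 815 and 323 in R377H (−0.90 ± 0.28, limma adjusted p = 0.0309). Without R377H replicate 1 Slc16a3 stood at −0.23 (limma adjusted p = 0.561), and chromosome 11 lay 0.50 lower in R377C relative to all genes. Ndrg1 was also higher in R377C (0.59 ± 0.20). Pfkfb3 (−0.88 ± 0.23), Bnip3 (−0.71 ± 0.23), Tpi1 (−0.36 ± 0.08) and Aldoa (−0.30 ± 0.08) were also lower in R377C. Without R377C replicate 1 these 4 and Slc16a3 (−0.86) lost their calls, at −0.61 for Pfkfb3, −0.39 for Bnip3, −0.28 for Tpi1 and −0.24 for Aldoa. Without R377H replicate 1 Pfkfb3 (−0.81), Bnip3 (−0.34) and Aldoa (−0.30) lost theirs, as did Slc16a3 without R377C replicate 2 (−0.93) and Aldoa without R377H replicate 2 (−0.31). Ndrg1 (0.47 to 0.71) lost its call without any 1 library. On TPM 1 member was higher and 1 lower, where 2118 and 1174 of all 18713 genes were.

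In the Q418R line both glucose transporters, Slc2a1 and Slc2a3, fell, and 4 of the 7 decreases were of genes on chromosome 6. Of the members 2 rose, where 11.2% of genes did, and 7 fell, where 13.8% did. Pdk1 had 1137 and 1042 normalized counts in Q418R, against 1828 and 1996 in WT ID (−0.81 ± 0.09, limma adjusted p = 2.4e-06). Slc2a3 (−0.80 ± 0.11), Tpi1 (−0.68 ± 0.08), Hk2 (−0.57 ± 0.09) and Slc2a1 (−0.49 ± 0.10) were the next largest decreases, followed by Vegfa (−0.46 ± 0.09) and Kdm3a (−0.37 ± 0.09). Eno1 had 27513 and 30343 in Q418R, against 24208 and 24841 in WT ID (0.24 ± 0.08, limma adjusted p = 0.0396), and Mxi1 rose by 0.22 ± 0.07. Eno1 lost its call without Q418R replicate 2 (0.17) and without either WT ID library (0.22 and 0.26), and Mxi1 (0.18 to 0.26) without any 1 library.

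The median of chromosome 6 lay 0.46 lower in Q418R than that of all genes, a shift over 957 genes. Slc2a3, Hk2, Tpi1 and Kdm3a lie on it. Centred on that median, Slc2a3 stood at −0.33 (limma adjusted p = 0.027), Tpi1 at −0.21 (limma adjusted p = 0.0621) and Hk2 at −0.10 (limma adjusted p = 0.445), and Kdm3a turned to 0.10 (limma adjusted p = 0.463). Pdk1 on chromosome 2, Slc2a1 on chromosome 4 and Vegfa on chromosome 17 kept their calls. The number of copies of a chromosome was not measured, and its part in these values was not tested. On TPM 0 members were higher and 8 lower in Q418R, beside 2 and 7 on normalized counts. Of all 18713 genes, 1217 were higher and 3416 lower on TPM.

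The R448Q line had the most calls of the 11 comparisons. Of the members 16 fell (47.1%), where 23.1% of all genes did, and 8 rose (23.5%), where 22.8% did. The members' median was −0.18, against −0.01 over all genes. Of the enzymes 8 of 15 fell and 3 rose, and 2 of 3 transport genes and 2 of 4 genes of pyruvate use and mitochondria fell. Of the oxygen sensing genes 2 of 3 rose, of the hydroxylases 2 rose and 1 fell, and of the 6 secreted or growth-related genes 1 rose and 3 fell.

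Pfkfb3 had 154 and 97.0 normalized counts in R448Q, against 310 and 228 in WT ID (−1.11 ± 0.23, limma adjusted p = 0.000476). Ankrd37 had 58.5 and 46.2 in R448Q, against 17.6 and 21.1 in WT ID (1.39 ± 0.37, limma adjusted p = 0.00463). Ddit4, an inhibitor of mTOR signalling (−0.86 ± 0.21), Vegfa (−0.80 ± 0.09), Bnip3 (−0.64 ± 0.23) and Pfkp (−0.62 ± 0.11) were the next largest decreases. Egln1 (0.95 ± 0.12), P4ha1 (0.85 ± 0.12), Kdm3a (0.47 ± 0.09) and Gapdh (0.39 ± 0.12) were the next largest increases. The other decreases ran from Pdk1 (−0.62 ± 0.09) to Tpi1 (−0.21 ± 0.08) and included Aldoc, Slc2a1, P4ha2, Mxi1, Pfkl, Slc2a3, Hk2, Hk1 and Ldha. Hif1a (0.33 ± 0.07), Pkm (0.26 ± 0.08) and Gpi1 (0.23 ± 0.07) were the remaining increases.

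Of the 24 R448Q calls 11 kept their side of the threshold without any 1 of the 4 libraries. Those were Ankrd37, Egln1, Hif1a, Kdm3a, Mxi1, P4ha1, Pdk1, Pfkfb3, Pfkp, Slc2a1 and Vegfa. Without R448Q replicate 2 there were 13 calls, against 16 without each of the other 3 libraries. Of the genes with the largest changes, Ddit4 lost its call without WT ID replicate 1 (−0.65), Bnip3 without either R448Q library (−0.65 and −0.63) or WT ID replicate 1 (−0.53), and Gapdh without either R448Q library (0.40 and 0.39) or WT ID replicate 2 (0.36). Chromosome 8 lay 0.45 higher in R448Q, and centred on it Egln1 stood at 0.50 (limma adjusted p = 0.00111) and Ankrd37 at 0.94 (limma adjusted p = 0.0472). Centring by chromosome ended 6 of the 24 calls and gave 9 members higher and 10 lower. Of 18278 genes so centred, 3903 were higher and 4038 lower, so the members' excess of decreases was smaller than without centring. Chromosome 7, which holds Gpi1, Aldoa, Ldha, Bnip3 and Adm, had a median of −0.17 relative to all genes. On TPM 5 members were higher and 18 lower, where 2734 and 6026 of all 18713 genes were, with the median of all genes at −0.17. Under quantile normalization 5 members were higher and 16 lower, where 4237 and 4334 of all genes were. Gapdh, above 0 in the other settings run, there turned to −0.14 (limma adjusted p = 0.512). Ctcf was at 278 and 284 TPM in R448Q and at 160 and 155 TPM in WT ID, and it was nearly as high in H455R, at 261 and 270 TPM, where 5 members were called. Its part in these values was not tested.

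In H455R 2 members rose, where 12.6% of genes did, and 3 fell, where 10.5% did. Egln1 had 1518 and 1428 normalized counts in H455R, against 967 and 857 in WT ID (0.69 ± 0.12, limma adjusted p = 0.000211). Bnip3 had 147 and 117 in H455R, against 266 and 226 in WT ID (−0.90 ± 0.23, limma adjusted p = 0.00683). P4ha1 rose (0.56 ± 0.12), and Pfkfb3 (−0.84 ± 0.23) and Vegfa (−0.43 ± 0.09) fell. Bnip3 and Pfkfb3 lost their calls without H455R replicate 2 (−0.73 and −0.80) and without WT ID replicate 1 (−0.78 and −0.62). Chromosome 8 lay 0.47 higher in H455R, and centred on it Egln1 stood at 0.23 (limma adjusted p = 0.157). Pdk1 was not called in H455R, with means of 1914 in H455R and 1912 in WT ID.

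**Figure D5:**
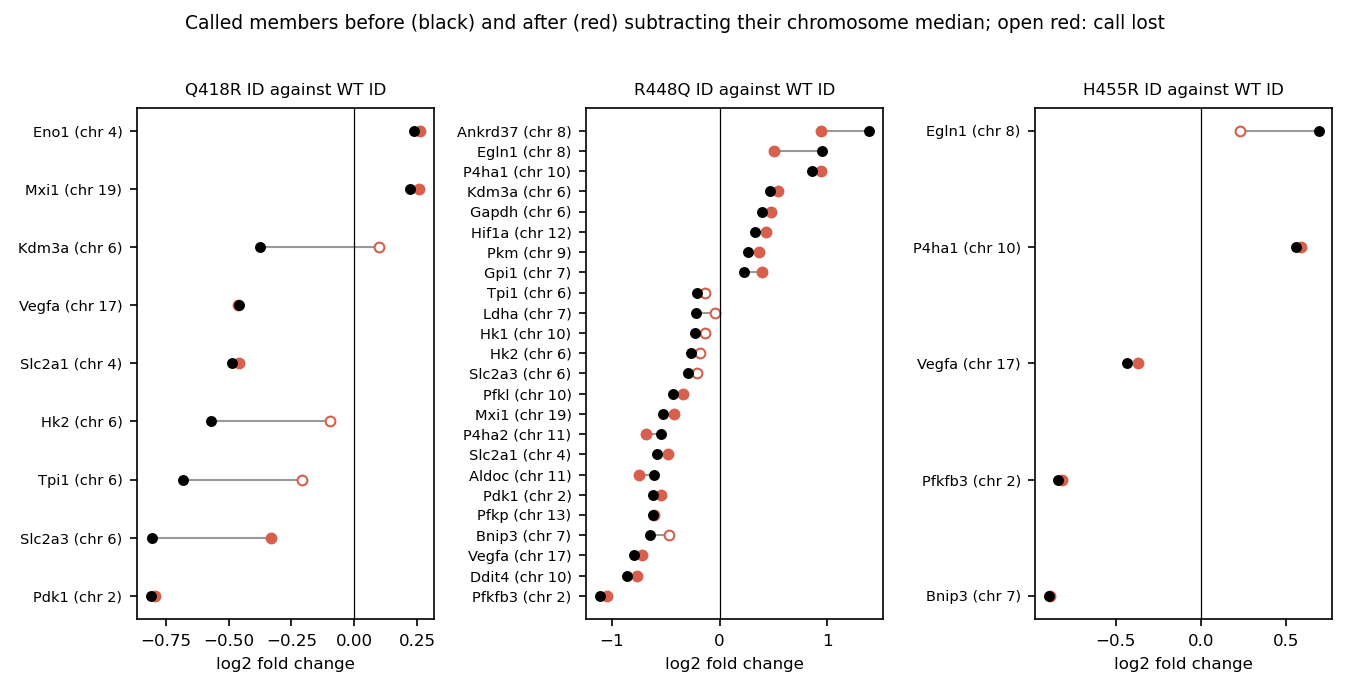
Log2 fold change of the called members in Q418R, R448Q and H455R over WT ID, as measured (black) and after each library was centred on the median of the gene's chromosome (red; open where limma adjusted p is 0.05 or more). The chromosome 6 genes of Q418R move toward 0 by close to that chromosome's shift, and Kdm3a crosses 0.

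Across the 11 treated groups the members differed in how widely they ranged. Bnip3 had the widest span, with group means of normalized counts from 132 in H455R to 487 in R377H, a 3.69-fold range, followed by Pfkfb3 (3.31-fold) and Slc16a3 (3.27-fold). Gpi1 (1.22-fold), Aldoa (1.24-fold) and Pgk1 (1.27-fold) ranged least. Egln3 (3.19-fold) and Adm (3.18-fold) also spanned widely, but their replicates differed by an SD of 0.39 and 0.40 on the log2 scale, and neither was called. WT ID had the lowest mean of the 11 groups in P4ha1 and Ankrd37 and the highest in Slc2a1, Hk2 and Pfkp, and that level enters every comparison with WT ID.

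The order of group means of Pdk1 was R377H (806), Q418R (1089), K365T (1240), R448Q (1247), R339Q (1438), WT IAA (1536), S354F (1544), R377C (1550), R342C (1586), WT ID (1912) and H455R (1914) normalized counts. WT IAA, S354F, R377C and R342C differed by less than the spread between S354F libraries, K365T and R448Q by less than that between R448Q libraries, and WT ID and H455R by less than that between WT ID libraries. For P4ha1 the means ran from 628 in WT ID to 1137 in R448Q, and for Vegfa from 2413 in WT IAA to 5869 in R342C. No treated group reached the untreated TPM of Pdk1 or P4ha1.

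The remaining genes of the pathway were read from further lists. Of 28 other glycolysis and pyruvate genes tested in R448Q, 4 rose and 10 fell, among them the enolases Eno2 (−1.53 ± 0.16) and Eno3 (−1.42 ± 0.16) and the insulin-responsive transporter Slc2a4 (−1.52 ± 0.18), which all fell. In the other 9 comparisons apart from WT IAA, 1 to 4 rose and 0 to 7 fell. Over all genes, 4.67% to 17.7% rose and 3.43% to 14.2% fell in these comparisons. The ranges do not match each count to its share, so they do not set this list apart. In WT IAA 3 rose and 4 fell, and Pck2, the mitochondrial carboxykinase, fell by 1.74 ± 0.15 on the log2 scale. Of 31 other hypoxia-responsive genes 11 rose and 4 fell in WT IAA, where 9.96% and 10.7% of all genes did, and 11 rose and 4 fell in R339Q, where 11.8% and 9.7% of all genes did. In R448Q 13 rose and 8 fell, where 22.8% and 23.1% of all genes did, and in H455R 10 rose and 1 fell, where 12.6% and 10.5% did. In K365T 9 rose and 5 fell, where 17.7% and 14.2% of all genes did, and in R377H 9 rose and 3 fell, where 14.4% and 10.7% did. In R342C 6 rose and 3 fell (all genes, 10% and 13.3%), and in S354F 3 and 2 did (all genes, 5.49% and 4.31%). In R377C 4 rose and 2 fell (all genes, 4.67% and 3.43%), and in Q418R 5 and 4 did (all genes, 11.2% and 13.8%). Between R377C and R377H 3 were higher and 5 lower in R377C (all genes, 7.88% and 11.1%). Called changes of at least 1 on the log2 scale included Loxl2 in R377C (2.15 ± 0.42), with a mean of only 7.4 normalized counts in WT ID, Bhlhe41 in R342C (2.00 ± 0.38), Car12 in K365T (1.99 ± 0.34), Edn1 in R448Q (1.97 ± 0.30) and Bhlhe40 in R448Q (−1.80 ± 0.22). The alpha subunit Epas1 rose in R339Q (1.19 ± 0.13), and the partner subunit Arnt2 rose in H455R (1.37 ± 0.11).

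Some values carry a limit of counting. On opposite strands, Ankrd37 overlaps Lrp2bp and Ufsp2, Tpi1 overlaps Spsb2, Gapdh overlaps Iffo1, Pfkp overlaps Pitrm1, Aldoa overlaps Fam57b and Hk1 overlaps Hk1os. How counting treated strand and shared reads was not stated, so reads of these partners cannot be told apart from the members' own. Gapdh, Pgk1, Eno1, Aldoa, Pgam1 and Ldha have processed copies, and their values are uncertain for that reason.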

How the data were processed

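Total RNA of 24 libraries (12 groups of 2) was used at gene level. Trim Galore, STAR, DESeq2 and the build mm10 are named, per the submitters' processing notes, without versions. Which counter the authors ran, and with which strand setting, is not given in the sources used here. Among the deposited tables, the normalized counts (used as a signal, with 1 size factor per library) came in a table of 22 treated libraries and a separate one of the 2 untreated libraries, and the deposited TPM likewise. In every library 100% of normalized counts were whole multiples of 1 step within 0.001, which gave whole reads for edgeR 4.0.16 and DESeq2 1.42.0 as alternatives. Columns belonging to no listed sample numbered 0.

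Treated groups were compared with limma 3.58.1 (lmFit, eBayes with trend) in R 4.3.3 on log2(normalized count + 1), for genes with a mean of at least 10, with 1 coefficient per group over all 22 libraries, two-sided tests (degrees of freedom 11 residual and 8.13 prior) and Benjamini-Hochberg adjustment over 18713 genes. All 34 members passed. Untreated cells were set beside treated ones by TPM without a test. Scripts were tested on simulated data. Alternatives were a pseudocount of 5, no filter, TPM, quantile normalization, edgeR, DESeq2, a replicate block, only the 4 libraries compared, centring by chromosome and leaving out each library.

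In each comparison the 5 largest called increases and decreases are named, with counts per library for the largest in each direction (in WT IAA, for called members of at least 0.5). Further lists name only called genes of at least 1, and 1 of their genes is not reported here. Members and lists were chosen with earlier results of these data known. Genes were placed with GENCODE M21, and promoter sequences are from RefSeq (GRCm38.p6).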

Additional observations from a re-analysis of the deposited data

Results flagged for a closer look

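The R377C and R377H lines carry different substitutions of the same arginine, and 7 of the 34 genes differed between them in a direct limma test of the difference. Pdk1 (0.94) and Ndrg1 (0.59) were higher in R377C than in R377H on the log2 scale. Slc16a3 (−0.90), Pfkfb3 (−0.88), Bnip3 (−0.71), Tpi1 (−0.36) and Aldoa (−0.30) were lower in R377C than in R377H. Each group holds 2 libraries, and Pdk1 alone kept its call without any 1 of the 4 libraries. R377H replicate 1 was the higher of its pair in Slc16a3 (815 against 323 normalized counts) and Bnip3 (610 against 364), and without it Slc16a3 stood at −0.23 and Bnip3 at −0.34. A line and its substitution cannot be told apart.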

How the results depend on the processing

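Counts of called members stayed within 1.5 times of the values above in every alternative that kept all libraries, except these. With only the 4 libraries in the fit, R339Q had 10 and S354F 0. Without a filter, R342C had 4, S354F 0, R377C 0, R377H 4 and R377C against R377H 4. On TPM, S354F had 0, R377C 1, R377H 4 and R377C against R377H 2. With quantile normalization S354F had 0 and R377C 1, with centring by chromosome S354F had 2 and R377C 1, and with DESeq2 R342C had 11. Leaving out each library gave 3 to 7 in WT IAA, 2 to 4 in R339Q, 3 to 5 in R342C, 0 to 1 in S354F, 4 to 9 in K365T, 0 to 0 in R377C, 4 to 6 in R377H, 7 to 8 in Q418R, 13 to 16 in R448Q, 3 to 6 in H455R and 2 to 6 in R377C against R377H. The lone library left in a group is then assumed to vary like the others. In the untreated comparison it gave 17 to 21 for WT ID and 16 to 20 for WT IAA, and scaling reads over all 24 libraries gave 19 and 23. Directions turned for Kdm3a in Q418R under centring by chromosome (0.10) and for Gapdh in R448Q under quantile normalization (−0.14), where the cause was not tested. A replicate block gave 8 calls in WT IAA, 7 in R377H, 6 in R377C against R377H and the same counts elsewhere, ending the calls of Pkm, P4ha1 and Ndrg1. The differences of replicate 1 from replicate 2 correlated between groups at −0.25 to 0.38 over 55 pairs of groups, with a median of 0.02. Of these pairs 10 were over 0.1 and 7 under −0.1. Whether numbers pair the libraries of some groups cannot be told from this. At 2 libraries a group, small changes of low genes such as Adm and Ankrd37 are hard to see.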
